A study of Mus musculus with 16 samples.

Results

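Epididymal white adipose tissue (eWAT) of mice labelled FGF1 null was set against that of wild-type mice, both on normal chow, in 4 of the 16 arrays of the series. The 4 arrays hold 2 RNA samples, and the labels describe the 2 arrays of an RNA as technical repeats. All mice were 24 weeks old after 16 weeks of diet, and the other arrays hold eWAT on high-fat diet (HFD) and liver on both diets, in the same genotypes. The labels do not say how the null allele was made, what strain or sex the mice were, or whether an RNA came from 1 mouse or from a pool. Each array is an Illumina MouseRef-8 bead array, on which labelled RNA binds probes and the brightness of a probe is read. With 1 RNA sample per genotype there is no spread between mice and no test of genotype. The arrays of a sample show only how well its RNA was measured, and every difference below is between 2 RNA samples.

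FGF1 is a growth factor without a classical secretion signal that binds the FGF receptors, and in mice its adipose form is induced through the fat-cell regulator PPARG when fat is laid down. White adipose tissue holds fat-storing adipocytes together with stromal progenitors, vessels and immune cells, and macrophages gather in it when it is remodelled. The epididymal depot lies on the epididymis, next to the testis, so tissue of the male tract borders the dissected fat.

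Levels are log2 intensities after background correction and quantile normalization of the 8 eWAT arrays. A gene was tested when 1 of its probes was detected, with a detection p-value under 0.05, on both arrays of at least 1 chow sample, which left 10689 of the 16593 named genes. It was called when the sample means differed at least 2-fold and both arrays of one sample lay above both of the other. In all, 1524 genes (14.3%) were called higher and 1507 (14.1%) lower in the sample labelled FGF1 null, and the median difference over all tested genes was 0.07. Without background correction, which spreads out dim probes, 850 genes were called higher and 953 lower. List medians shrank as well, and of 23 lists with a median past 2-fold 15 stayed past it, with medians at 0.41 to 1.0 times those given here. Differences of at least 16-fold were counted in 25 genes that were higher and 233 that were lower. Between the arrays of the same RNA, 81 genes in the null sample and 10 in the wild-type sample lay 2-fold apart. The correlation over kept probes was 0.989 and 0.995 between such arrays and 0.842 between the samples. Detected probes numbered 14460 and 14586 on the null arrays and 15282 and 15399 on the wild-type arrays.

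**Figure D1:**
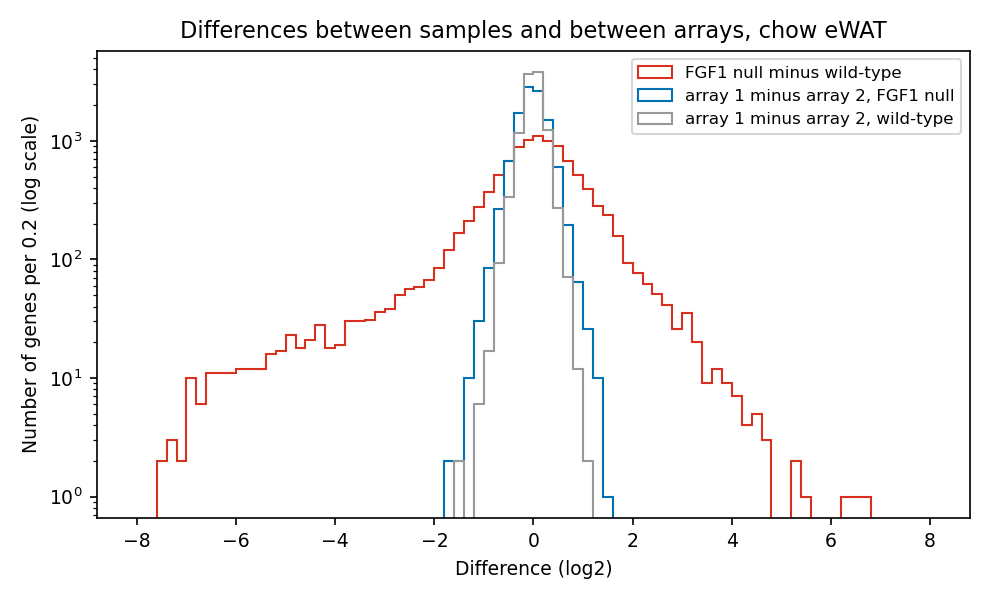
Number of genes (log axis) at each log2 difference between the chow eWAT samples (red), and between the 2 arrays of the FGF1 null RNA (blue) and of the wild-type RNA (grey). The sample difference is far wider than either array difference, and its left side reaches beyond -7.

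The probe for Fgf1 itself went against the label. Its level was 10.18 and 9.79 on the null arrays and 9.47 and 9.16 on the wild-type arrays, so all null values were the higher ones. The difference of 0.67 was not called, and a further, dimmer Fgf1 probe was higher in the null sample by 1.16. On HFD the same chosen probe was lower in the null eWAT, at 9.19 and 9.37 against 10.70 and 10.85. In liver it was lower in the null sample on both diets, at 9.24 and 9.48 against 10.38 and 10.23 on chow, which was not called, and at 8.18 and 8.28 against 9.63 and 9.68 on HFD, which was. Chow eWAT was thus the 1 comparison of 4 that went against the label, and whether its samples are mislabelled was not tested. The sources used here do not place these probes inside or outside the deletion, so Fgf1 does not check the genotype, and directions below belong to the sample labelled FGF1 null.

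Among FGF ligands, receptors and their cofactors, 4 of 13 tested genes were called higher and 2 lower, the latter near the 14.1% of all genes. Fgf13, an intracellular FGF family member that acts on sodium channels, was at 11.60 and 11.51 in the null sample and at 7.68 and 7.21 in the wild-type sample, a difference of 4.11. On HFD the order of the genotypes was the other way round for Fgf13, with a difference of -4.02. The receptor gene Fgfr1 was higher by 1.74, the ligand gene Fgf10 by 1.18, and Dusp6, a phosphatase gene induced by FGF signalling, by 1.04. Kl, which encodes the cofactor klotho, was lower by 1.26 (-1.26), and Fgfr3 differed by -1.08. Fgf21, the metabolic hormone of this family, did not differ by more than its arrays, at 6.16 and 6.44 against 6.69 and 6.05.

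Genes of testicular germ cells were among the largest differences, and they were higher in the wild-type sample. Of 55 tested genes in 4 germ-cell lists, 54 were called lower in the null sample, against 14.1% of all genes, and 0 higher. The median difference was -4.75, and 35 genes differed at least 16-fold. Prm1, the protamine that packs sperm DNA, was at 15.71 and 15.61 in the wild-type sample and at 9.93 and 9.73 in the null sample. Tnp1, a transition protein that precedes the protamines, was at 13.49 and 13.60 against 6.67 and 6.46. The wild-type arrays stood far above the null arrays for both genes. For 17 of the 54 genes neither null array detected the probe, so only a bound on the fold can be given. These 17 were tested only through the wild-type sample, where they are high, so they could hardly have been called otherwise.

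All 10 genes of the spermatid nucleus were called lower. The linker histone gene Hils1 was at least 156-fold lower in the null sample and Cypt3, of the perinuclear theca, at least 129-fold. H2al1e, an H2A variant of spermatids, differed by -7.22. The list of sperm tail, acrosome and spermatid genes had 25 of 25 tested members called lower, with a median of -4.29. Among them were Fabp9 at -7.25, Spata19 at -7.21 and Akap4, a scaffold of the sperm tail, at -6.17, and the capping protein gene Capza3 was at least 81.1-fold lower. All 9 tested genes of a list of germ-cell metabolism isoforms, not all of them metabolic genes, were lower as well. Among them were Adam3 at -6.99, the lactate dehydrogenase gene Ldhc at -6.95, and the enzyme genes Pgam2 at -6.30 and Gapdhs at -5.87. In the meiotic list 10 of 11 tested genes were called lower, led by Tdrd6 at -6.57. Spo11, which makes the breaks of meiotic recombination, was at least 25.5-fold lower. The array holds 18 genes of this list. Sycp1, Sycp2, Sycp3, Dmc1, Stra8, Mael and Hormad1 were not tested, as none was detected on both arrays of a chow sample. Dnajc5b at -7.16 and Cstl1, at least 111-fold lower, also stood among the 12 largest decreases.

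Somatic cells of the testis pointed the same way. Of 10 tested Sertoli and Leydig genes 6 were called lower and 1 higher. For 5 of the 10 neither null array detected the probe. Those 5 were tested only through the wild-type sample, so they could hardly have been called higher. Insl3, the Leydig cell hormone, was at 11.70 and 11.40 in the wild-type sample and on neither null array detected, a difference of at least 81.8-fold. Hsd17b3, which completes testosterone synthesis in Leydig cells, was at least 5.41-fold lower. Inhbb, an inhibin subunit that adipocytes also make, was higher by 1.91. In the HFD samples the germ-cell genes lay mostly below the wild-type chow level in both genotypes, so the wild-type chow sample stood above the other 3 eWAT samples. Not all of them were near background, as Prm1 was between 9.79 and 10.04 on the 4 HFD arrays. Of the 54 genes called lower, 53 had both wild-type chow arrays above all 6 other eWAT arrays.

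**Figure D2:**
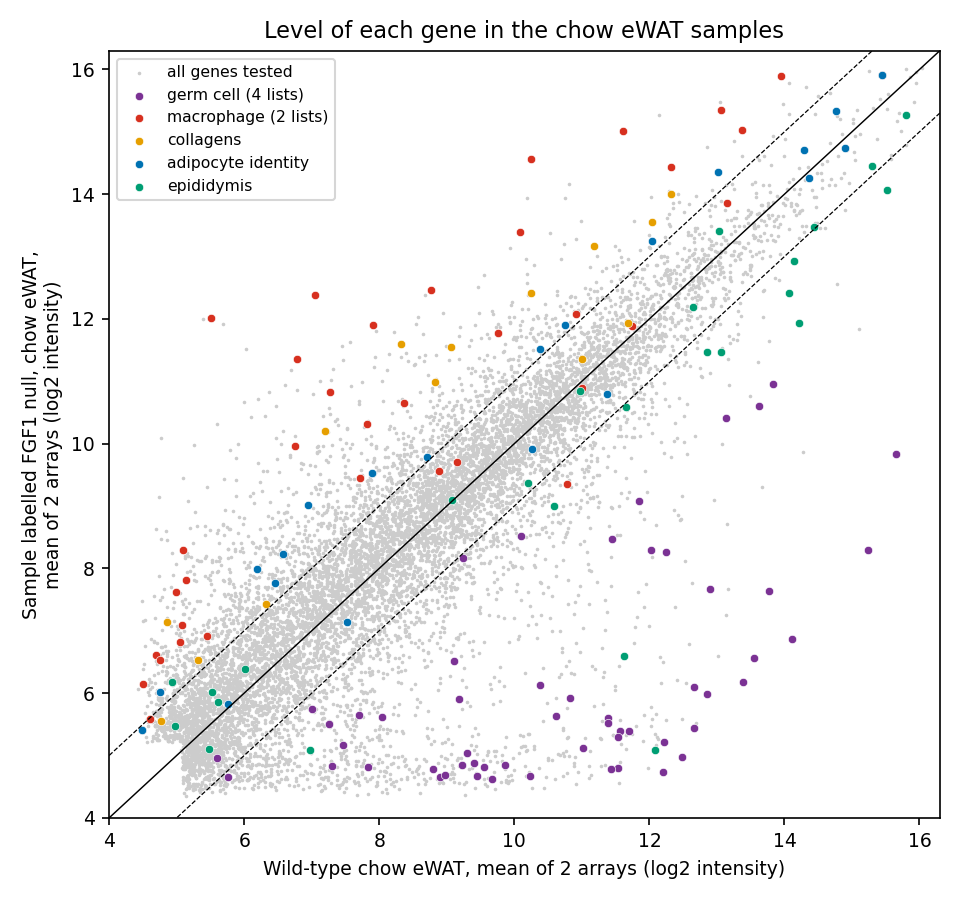
Level of each tested gene in the wild-type chow sample (x axis) and in the sample labelled FGF1 null (y axis), as means of 2 arrays in log2 intensity, with dashed lines at 2-fold. Germ-cell genes (purple) lie in the lower right, some near background in the null sample and others well above it, and macrophage genes (red) lie mostly above the upper dashed line.

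Epididymal genes were present in both chow samples. Of 25 tested, 11 were called lower in the null sample and 1, Lcn5, higher by 1.24. The median difference was -0.85. Npy, a neuropeptide gene that this list and the neuronal list share, was at 14.17 and 14.27 in the wild-type sample and at 11.83 and 12.03 in the null sample, and Spink2, a protease inhibitor of the male tract, was lower by 5.02 (-5.02). Defb19, a beta-defensin gene, was at least 118-fold lower. Its mean level was 5.09 in the null chow and 5.05 in the null HFD sample, where the list's median was 10.58 and 9.59. Defb19 thus did not follow its list. Crisp4, an epididymal secretory gene named here for its level after its values were seen, was at 10.85 and 10.84 against 10.97 and 10.98, and on the wild-type HFD arrays it was at 4.85 and 4.84. The median level of the list was 10.58 in the null and 11.66 in the wild-type chow sample, 9.59 in the null HFD sample and 5.13 in the wild-type HFD sample. Summed over its genes, epididymal intensity was 131763 and 137727 on the null chow arrays against 262361 and 273606 on the wild-type ones.

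Smooth muscle genes, which vessels, the epididymal wall and the testis capsule share, had 5 of 13 members called lower and 2 higher. Actg2, an actin of visceral smooth muscle, was lower at 11.48 and 11.80 against 13.73 and 13.81. Myh11, the smooth muscle myosin, differed by -1.60. Notch3, a receptor of pericytes, was higher by 1.60 and Cspg4, another pericyte gene, was also called higher. These contractile and pericyte genes differed in opposite directions.

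**Figure D3:**
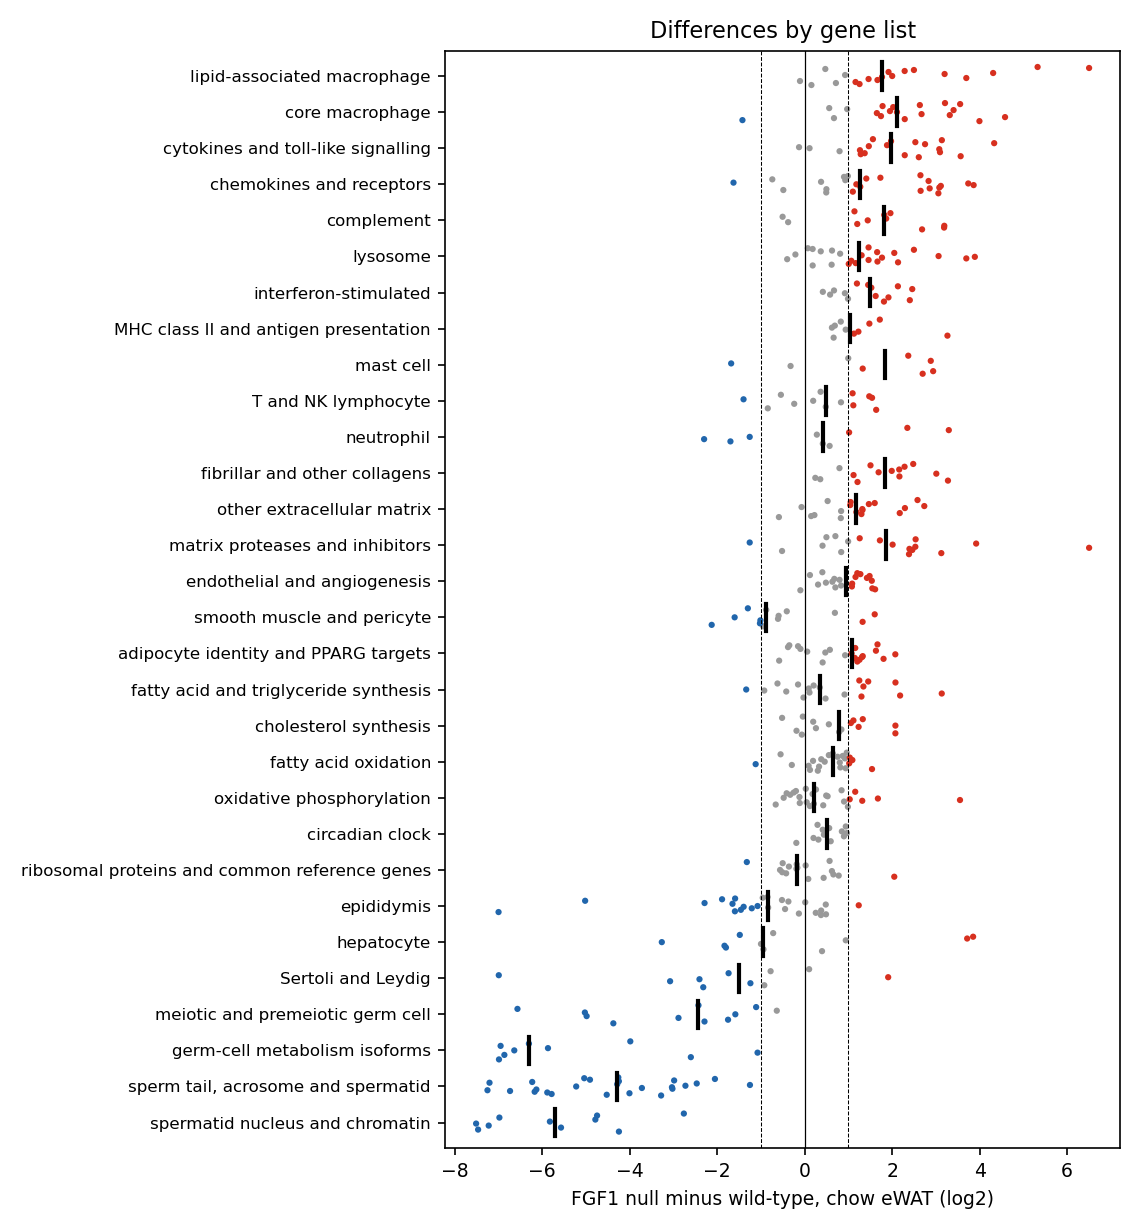
Difference of every tested gene of 30 lists (FGF1 null minus wild-type, chow eWAT, log2), with 1 point per gene, red when at least 2-fold higher and blue when at least 2-fold lower, and a black bar at the list's median. The 4 germ-cell lists lie wholly or almost wholly to the left, the macrophage lists mostly to the right, and the ribosomal list is centred at -0.17.

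Macrophage genes were higher in the sample labelled FGF1 null, as were other immune and matrix genes described after them. Of 19 tested genes of the core macrophage list 15 were called higher and 1 lower, against 14.3% called higher among all genes. The median difference was 2.11. For 4 of the 19 neither wild-type array detected the probe. Those 4 were tested only through the null sample, so they could hardly have been called lower. Adgre1, which encodes the macrophage surface marker F4/80, was at 11.81 and 11.99 in the null sample and at 7.83 and 7.99 in the wild-type sample, a difference of 4.0 on the log2 scale, and its 2 further probes differed by 3.12 and 4.44. Cd84, a receptor of the SLAM family, was higher by 4.58, Tyrobp, an adaptor of activating receptors, by 3.55, and Lyz2, the lysozyme gene of myeloid cells, by 3.40. Aif1, also a macrophage gene, differed by -1.42, at 9.25 and 9.47 against 10.72 and 10.84. In tissue RNA, more cells of a type and more RNA per cell cannot be told apart.

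Genes that mark lipid-associated macrophages, the lipid-laden cells of remodelled fat, were called higher in 14 of 19 cases and lower in 0. Here 3 of the 19 were detected on neither wild-type array, so they were tested only through the null sample. Mmp12, the macrophage elastase, was at 11.89 and 12.14 in the null sample against 5.55 and 5.46, a difference of 6.50. Trem2, a lipid-sensing receptor, was at 12.44 and 12.32 against 7.23 and 6.88. For Mmp12 and Trem2 the null chow arrays lay above all other eWAT arrays. Gpnmb was higher by 4.31, the protease gene Ctsk by 3.70, and Fabp5, a fatty-acid carrier, by 3.20. Lysosomal genes had 15 of 24 members called higher and 0 lower, with Ctss at 3.89 and Ctsz at 3.06.

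Inflammatory mediators followed. Of 23 chemokine and receptor genes 14 were called higher and 1, Cx3cl1, lower. Ccl7, an attractant of monocytes, was higher by 3.86, Ccl9 by 3.74 and Ccl6 by 3.11. Of 19 genes of cytokines and toll-like signalling 16 were called higher, with the receptor Tlr13 at 4.33, the inflammasome protease Casp1 at 3.57 and the interleukin-1 antagonist Il1rn at 3.08. In the chemokine list and in the cytokine list, 3 genes each were detected on neither wild-type array. Those genes were tested only through the null sample. Complement genes were higher in 9 of 11 cases, led by the C1q subunits C1qb and C1qc, both at 3.19. Acute-phase genes were called higher in 5 of 14 cases and lower in 1. Saa3, the serum amyloid A of fat and macrophages, was at 11.38 and 11.64 against 6.27 and 5.79, and Orm1 was higher by 3.04, whereas Lcn2 differed by -1.70.

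Other immune cells were represented less evenly. Mast cell genes were called higher in 5 of 8 cases, with the protease genes Cpa3 at 2.94 and Mcpt4 at 2.88, and Hdc, the enzyme of histamine synthesis, was called lower. B-cell genes were higher in 6 of 9 cases, with the antigen-receptor subunits Cd79a at 2.33 and Cd79b at 2.32. The median of this list was 1.36, and 0.56 without background correction. T and NK cell genes were called higher in 5 of 13 cases and lower in 1. Neutrophil genes split, with 3 of 9 higher and 3 lower. S100a8 was at 11.55 and 11.33 against 8.19 and 8.10, while Ltf, a lactoferrin gene of neutrophils and of secretory epithelium, was at 11.16 and 11.47 against 13.67 and 13.56. MHC class I and class II genes were each called higher in 5 of 10 cases and lower in 0, with Cd83, a maturation marker of antigen-presenting cells, at 3.26 and H2-D1 at 1.82.

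Interferon-stimulated genes were called higher in 9 of 14 cases and lower in 0, with a median of 1.49. The antiviral genes Oas2 and Rsad2 were higher by 2.46 and 2.13, and the guanylate-binding proteins Gbp3 and Gbp2 by 2.40 and 1.81. The interferon-stimulated response element, searched on both strands as a pair of GAAA boxes with 2 bases of any kind between them, was found in the promoter window of 6 of the 10 members that had one and of 3.99% of all 27025 genes with one. A window runs from 250 bases before to 50 after the gene start in RefSeq, build GRCm38.p6. This motif was chosen after its matches were seen, from 8 motifs looked at over 8 lists, of which only 2 were planned. The planned ones were the cAMP response element TGACGTCA and its core TGACG, which lies inside it. The others were TGACGT, which TGACGTCA also contains, GAGGAAGT and the GGAAGT inside it, TATAAA and CCAAT. Of the 14 core macrophage genes with a window, 7 held GGAAGT (50%, against 26.5% of all genes). The longer GAGGAAGT was found in 0 of them (0%, against 3.69% of all genes). The share with GGAAGT was 47.6% in lysosomal, 42.9% in lipid-associated macrophage and 40% in interferon-stimulated genes. It was 30.6% in the 3 germ-cell lists and 18.2% in collagens, so GGAAGT was not particular to core macrophage genes. In the 36 genes of 3 germ-cell lists with a window, TGACGTCA was found in 1 (2.78%, against 2.03% of all genes) and TGACG in 11 (30.6%, against 23%). The stretches of the 5 called members that hold the interferon element are shown to set their matches side by side, written 5′ to 3′ on the strand of the gene with each match in capitals. They are chr3:142559959-142560058 (plus strand) for Gbp3, chr3:142620564-142620663 (plus) for Gbp2, chr19:34583333-34583432 (plus) for Ifit3, chr12:26456513-26456612 (minus) for Rsad2 and chr10:128270248-128270335 (plus) for Stat2.
Gbp3: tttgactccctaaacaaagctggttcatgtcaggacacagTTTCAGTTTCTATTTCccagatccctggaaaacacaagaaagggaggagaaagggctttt
Gbp2: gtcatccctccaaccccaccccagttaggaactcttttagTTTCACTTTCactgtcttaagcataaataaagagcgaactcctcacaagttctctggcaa
Ifit3: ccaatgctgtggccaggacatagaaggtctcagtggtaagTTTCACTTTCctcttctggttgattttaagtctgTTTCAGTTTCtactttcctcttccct
Rsad2: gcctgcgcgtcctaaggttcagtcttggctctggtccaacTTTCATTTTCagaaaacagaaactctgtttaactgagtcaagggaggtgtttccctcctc
Stat2: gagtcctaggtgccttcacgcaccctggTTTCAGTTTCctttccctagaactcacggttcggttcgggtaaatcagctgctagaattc
Gbp3 and Ifit3 each held 2 matches, which overlap in Gbp3. Isg15, whose window also held matches, was not called, with a difference of 0.42, and the called members Ifit2 and Oasl2 had a window without a match, so matches and calls did not coincide in every member. A match describes the letters of the window only.

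Connective tissue was higher across most of its genes. Of 14 tested collagens 11 were called higher and 0 lower, with a median of 1.84. No wild-type array detected 2 of the 14, so those were tested only through the null sample. Col3a1 was at 10.29 and 10.11 against 7.16 and 7.22, Col1a1 was higher by 2.17 and the basement membrane collagen Col15a1 by 3.28. Other matrix genes were called higher in 12 of 19 cases, among them Mfap5 at 2.74 and Tnc, a matrix protein of remodelled tissue, at 2.58. Proteases and their inhibitors were higher in 11 of 18 cases, with the stromelysin Mmp3 at 3.92 and the inhibitor Timp1 at 2.54, and Mmp9 was lower at -1.26. Progenitor and fibroblast genes were higher in 8 of 16 cases, with Dpt at 3.15, and Dlk1, a marker of preadipocytes, was called lower at -1.13. Endothelial genes were higher in 10 of 20 cases and lower in 0, with Angpt2, a regulator of vessel remodelling, at 1.61.

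Of the 147 tested genes of all 10 adipocyte lists 47 were called higher (32%) and 7 lower, with a median of 0.49, beside 115 of 182 (63.2%) and a median of 1.31 in the 13 immune lists. Of 21 tested genes of adipocyte identity 11 were called higher and 0 lower, with a median of 1.07. For 2 of the 21 neither wild-type array detected the probe, and with these at their bound the median was 0.95, under 2-fold. Adipoq, the adiponectin gene, was at 14.63 and 14.78 against 14.29 and 14.30, a difference of 0.41 that was not called. Pparg, the master regulator of fat cells, was at 11.88 and 11.94 against 10.78 and 10.72, and its 2 further probes differed by 1.16 and 1.14. Cebpa, its partner, was higher by 1.80, Gpd1, which makes the glycerol backbone of fat, by 2.07, and Plin1, the lipid droplet coat, by 1.63. Lep, the hormone that reports fat mass, was at 15.34 and 15.61 against 13.09 and 12.99, a difference of 2.43. Adipokine genes were called higher in 5 of 7 cases, with Sfrp5 at 2.68.

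Lipid metabolism showed a similar range. Genes of fatty acid and triglyceride synthesis were called higher in 7 of 19 cases, with Dgat2, the last step of triglyceride assembly, at 15.43 and 15.11 against 12.26 and 12.02. Fads2, a desaturase, was the 1 member called lower, at -1.34. Cholesterol synthesis genes were higher in 6 of 15 cases, with Lss at 2.08 and Dhcr7 at 2.07. Fatty acid oxidation genes were called higher in 4 of 23 cases and lower in 1, and oxidative phosphorylation genes in 5 of 25 cases, with Cox8b, a muscle and brown-fat subunit, at 3.55. Those last shares lie near the 14.3% of all genes. None of 12 circadian clock genes was called, and ribosomal protein and reference genes had 1 of 17 called higher and 1 lower.

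Other large differences were in single genes and in further lists. Tph2, the neuronal enzyme of serotonin synthesis, was at 12.03 and 11.97 against 5.49 and 5.28, the largest increase called at 6.62. Of 8 tested regulators of G-protein signalling 3 were called higher and 0 lower. Rgs1, a brake on G-protein signalling in leukocytes, was at 11.96 and 11.89 against 5.85 and 5.52. Lctl, a relative of klotho, was at least 32.5-fold higher, and the gastric lipase gene Lipf was higher by 4.66. Genes of glucose uptake and glycolysis were called higher in 4 of 17 cases and lower in 3, with Hk3, a hexokinase of myeloid cells, at 4.73 and Slc2a3, a glucose transporter of neurons and sperm, at -3.08. Immediate-early genes were higher in 6 of 14 cases and lower in 0, with the transcription factor genes Atf3 at 4.72 and Fos at 3.88. Cell cycle genes were called higher in 4 of 15 cases and lower in 3. The replication gene Mcm6 was higher by 2.06 while Plk1 and Cdc20, which act in mitosis and meiosis, differed by -2.41 and -2.38.

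**Figure D4:**
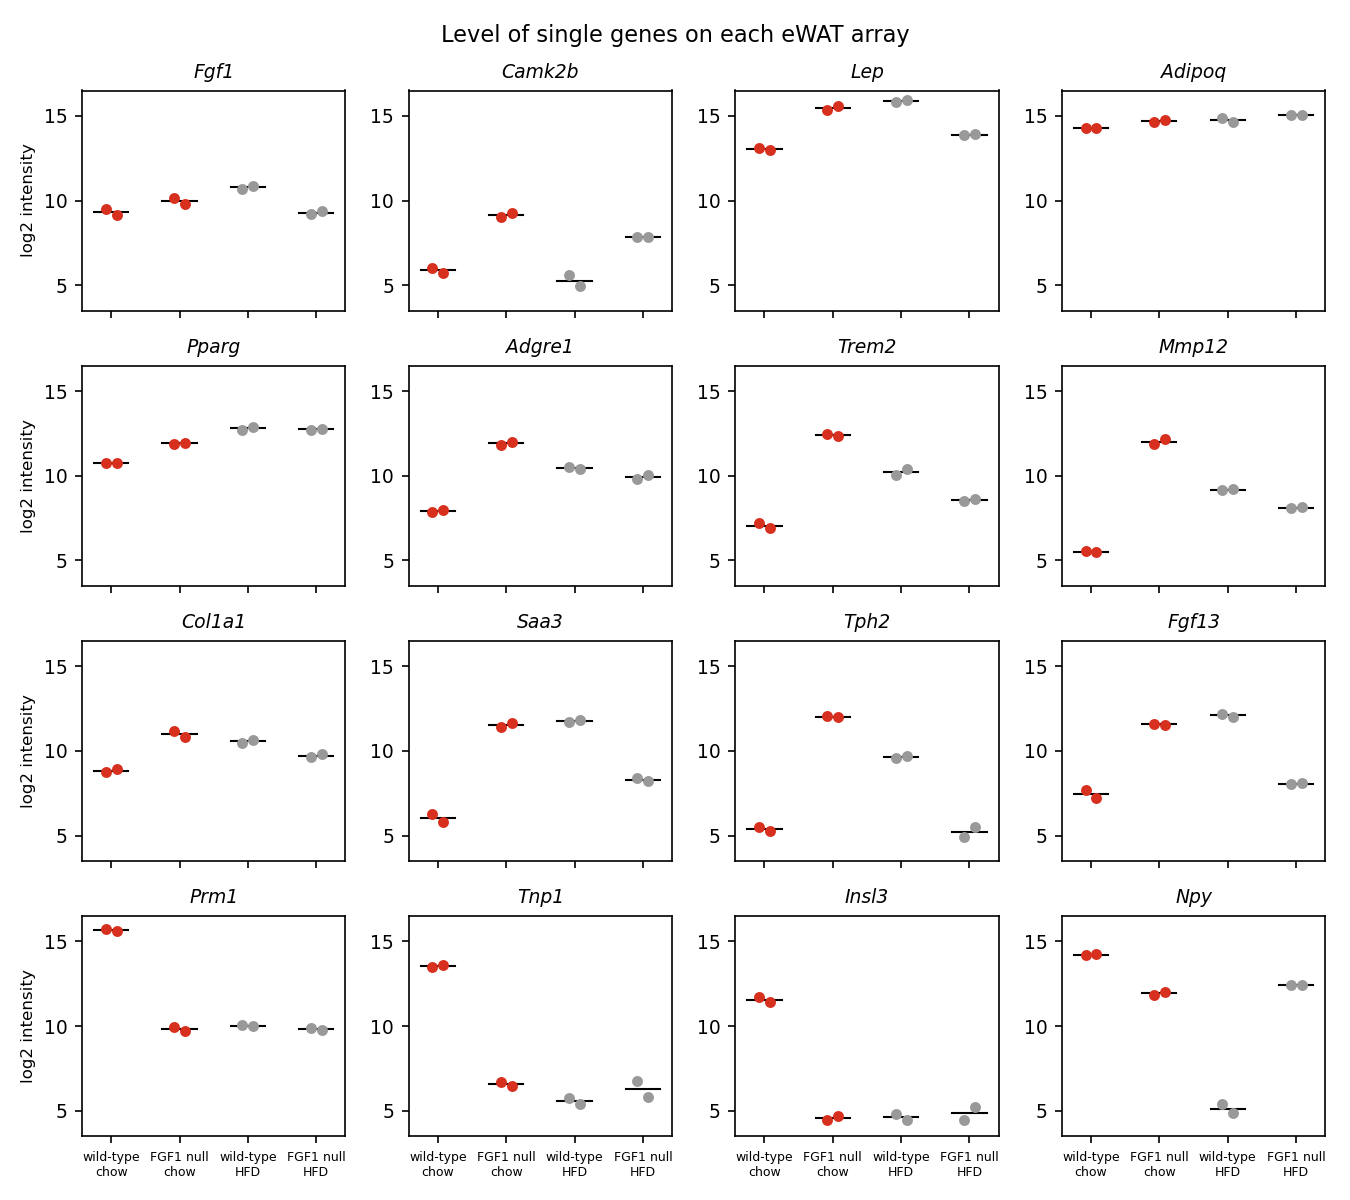
Level of 16 genes on each of the 8 eWAT arrays (log2 intensity), with the sample mean as a bar, chow in red and HFD in grey. Prm1, Tnp1 and Insl3 are far higher in the wild-type chow sample than in the others, where Prm1 still lies well above background. Adgre1, Trem2, Mmp12 and Tph2 are highest in the FGF1 null chow sample.

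Against the other eWAT samples the wild-type chow sample was the more often displaced one. Of the 1524 genes called higher, 1334 (87.5%) had both wild-type chow arrays below the 6 other eWAT arrays, and 720 (47.2%) had both null chow arrays above their 6. Of the 1507 called lower, 1406 (93.3%) had the wild-type chow arrays above the other 6, and 224 (14.9%) had the null chow arrays below them. Among macrophage genes both held, with 13 of the 15 core genes called higher at their lowest in the wild-type and 13 at their highest in the null chow sample. Of the 11 called collagens 11 were lowest in the wild-type and 4 were highest in the null chow sample. For triglyceride synthesis these numbers were 7 and 0 of 7. Called genes of testis and epididymis were high in this same wild-type chow sample. Immune (94 of 115), stromal (54 of 57) and adipocyte (42 of 47) genes called higher had their lowest arrays there. These counts lie near the 87.5% of all genes called higher, so they are not particular to those groups. The part of testis and epididymis tissue in those differences was not tested. Haemoglobin and other erythroid genes were higher in the null sample in 3 of 3 cases. Liver genes were called higher in 2 and lower in 4 of 11 cases, and 0 of those lower were highest in the wild-type chow sample. Serpina1d differed by 3.85 and is 1 of a family of near-identical copies whose probes may share signal. Cyp2e1 differed by -3.27 but did not follow its list. It was at 11.83 in the null and 15.10 in the wild-type chow sample, and at 15.79 and 15.11 on HFD. The list's medians were 6.74 and 7.95 on chow, and 8.43 and 13.97 on HFD, in the same order.

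**Figure D5:**
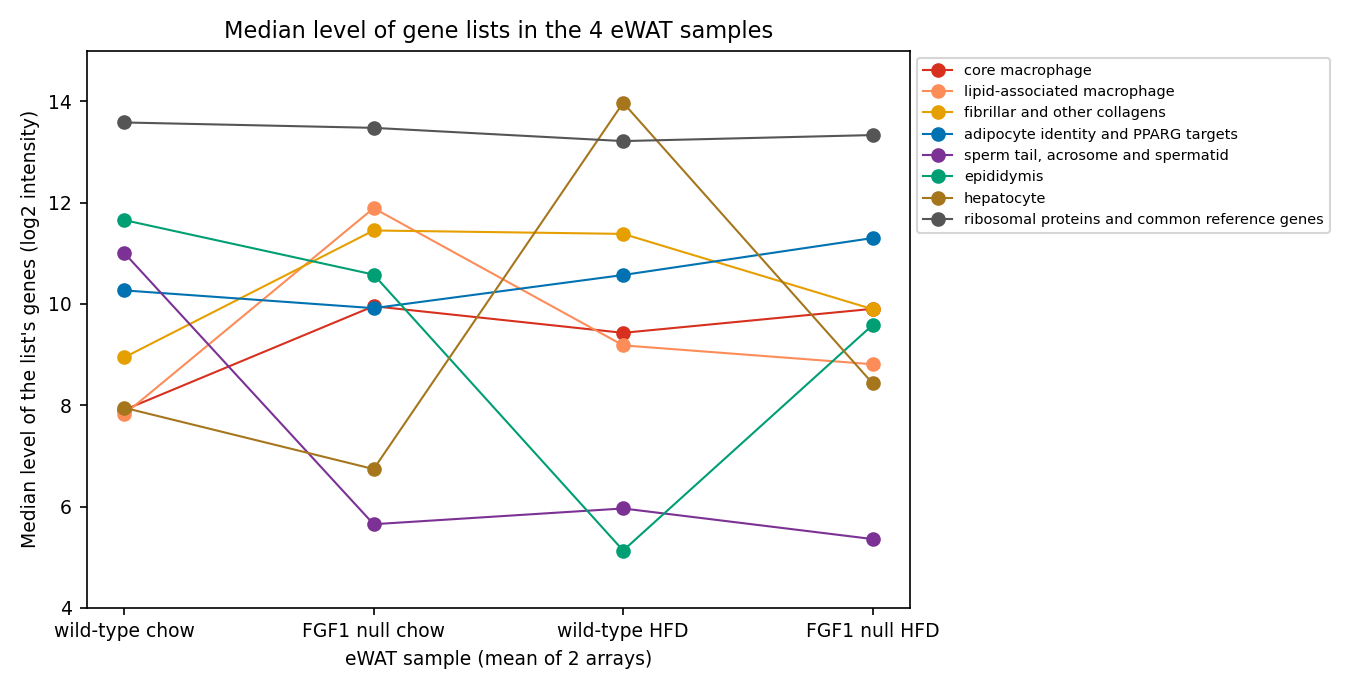
Median level of the tested genes of 8 lists in each eWAT sample (means of 2 arrays, log2 intensity). Sperm genes are high in the wild-type chow sample, epididymal genes are low in the wild-type HFD sample, and the ribosomal list lies between 13.22 and 13.58 in all 4. The median of adipocyte levels is slightly lower in the null than in the wild-type chow sample (9.92 and 10.27), although the median of the gene-by-gene differences is 1.07.

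The other genotype comparisons use other arrays. In HFD eWAT, 5.73% of the genes were called higher and 5.93% lower by the same rule and probe. Of the genes called higher on chow 18 were also higher on HFD and 245 were lower, and of those called lower on chow 68 were lower and 201 higher on HFD. In liver on chow 1.18% were called higher and 0.717% lower, and in liver on HFD 3.46% and 1.51%. Of the 1140 genes called higher in chow eWAT and tested in HFD liver, 141 were higher there too, which is 12.4% of the former and 54.0% of the 261 HFD liver genes. A further 24 of the 1140 were lower in HFD liver. Of the 12 core macrophage genes called higher on chow and tested there, 6 were higher, 1 (Vsig4) was lower and 5 were not called, Adgre1 among them. Of 11 such lipid-associated macrophage genes 4 were higher, 1 (Fabp5) lower and 6 not called. In HFD liver Gpnmb was at 9.48 and 9.72 in the null sample against 5.35 and 4.84, and S100a8 was at 10.33 and 10.45 against 6.13 and 6.51.

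Camk2b, the beta subunit of calcium/calmodulin-dependent kinase II, was the only 1 of 6822 genes tested in all 4 genotype comparisons that was called in the same direction in each. In chow eWAT it was at 9.03 and 9.29 in the null sample and at 6.00 and 5.75 in the wild-type sample, a difference of 3.28. In HFD eWAT the difference was 2.57. In liver its null levels were 8.57 and 8.32 on chow and 8.91 and 8.80 on HFD, and no wild-type liver array detected it. Of its 2 tested relatives, Camk2d differed by 0.94 and Camk2g by 0.12 in chow eWAT, neither of them called.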

How the data were processed

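Arrays were processed in GenomeStudio, per the submitters' processing notes, with no version given there. The authors deposited, for 25697 probes on each array, a detection p-value and a non-normalized, linear intensity. They also deposited normalized intensity values, whose method is not given in the sources used here. RNA was taken up with Trizol and RNeasy and amplified to biotinylated cRNA, per the labels' protocols.

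From the non-normalized intensity, neqc of limma 3.58.1 in R 4.3.3 corrected background with an offset of 16 and quantile normalized the 8 eWAT arrays (liver apart). Small offsets spread dim probes, and 4 called genes reach above 60000, where signal saturates. Probes were named by the platform annotation of 2016 (23978 with 1 symbol, 0 with several, 1719 with none). The brightest kept probe stood for a gene. Of 703 called genes with a further kept probe, 484 had one called the same way and 4 one called the other way. Where neither array of the dimmer sample detected a gene, "at least" gives the bright mean over the higher of the dim value and the array's lowest detected level.

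The arrays of a sample count as 1 replicate, so no p-value is given. The calling code was tested on simulated data. Genes named were the 12 largest called differences each way, up to 6 called members of each of 51 lists with up to 2 exceptions, and fixed genes; genes outside this rule were picked with their values in view. The members and lists were chosen with earlier results of these data known. Symbols were matched through synonyms, except where these led to a wrong gene, an exclusion made after seeing the data. Alternatives tried are listed in the closing section.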

Additional observations from a re-analysis of the deposited data

Results flagged for a closer look

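Of 80 named genes called on both diets, 73 were called in opposite directions in the chow and the HFD eWAT comparison, with every array of one sample above the other in each. That is 91.2% of them, beside 446 of 532 (83.8%) over all genes called on both diets, a general pattern rather than one of the named genes. The difference between the diets was not tested, since each sample is 1 RNA. The values that follow are HFD differences (null minus wild-type, log2), and their chow direction was the opposite. Gata3 was detected on neither wild-type HFD array, and Mmp13 and Tlr1 on neither null HFD array, so the size of those 3 values depends on the background.

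Immune and inflammatory genes that were higher on chow and lower on HFD were Saa3 (-3.45), S100a8 (-2.30), Orm2 (-2.26), Rgs1 (-2.12), Orm1 (-1.89), Il1rn (-1.80), Ccl7 (-1.73), Cd79a (-1.72), Trem2 (-1.64), Vsig4 (-1.50), Ccl4 (-1.45), Cd79b (-1.41), Cd3g (-1.26), Tlr1 (-1.24), Blk (-1.23), Gpnmb (-1.21), Cd44 (-1.20), Dpep2 (-1.12), Cd83 (-1.10) and Mmp12 (-1.08). Matrix genes of the same pattern were Col15a1 (-2.44), Col5a3 (-2.30), Col6a2 (-1.42), Mmp13 (-1.41), Adamts5 (-1.17), Col5a1 (-1.12) and Tnc (-1.01).

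Adipocyte and lipid genes with this pattern were Agpat2 (-2.42), Dgat2 (-2.40), Fabp5 (-2.19), Lep (-1.96), Pfkp (-1.91), Srebf1 (-1.78), Lss (-1.75), Sc5d (-1.69), Me1 (-1.59), Gpd1 (-1.57), Slc25a1 (-1.46), Dhcr7 (-1.41), Cidea (-1.39), Mvd (-1.35), Pmvk (-1.25), Insig1 (-1.15) and Sfrp5 (-1.10). Liver genes Serpina1b (-6.05) and Serpina1d (-5.99), as well as Tph2 (-4.43), Fgf13 (-4.02), Lipf (-3.04), Atf3 (-2.43), Lctl (-2.22), Fos (-2.10), Slc4a1 (-1.70), Pvalb (-1.65) and Myl1 (-1.07), also turned.

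Genes that were lower on chow and higher on HFD were the male-tract and epithelial genes Npy (7.29), Ly6f (6.97), Ltf (6.84), Spink1 (3.31), Defb20 (2.81), Krt18 (2.03), Spink2 (1.38) and Krt8 (1.12). They also included the muscle genes Actg2 (2.76), Myh11 (1.40), Tpm2 (1.31), Tnnc2 (1.15) and Mb (1.07), and Gata3 (3.57), Mmp9 (2.06), Slc2a3 (1.73), Cx3cl1 (1.16) and Irs2 (1.07). Genes of other tissues differed between the HFD samples too. The median level of liver genes was 8.43 in the null and 13.97 in the wild-type HFD sample, that of epididymal genes 9.59 and 5.13, and that of 4 exocrine pancreas genes 15.92 and 13.12. Their part in these values was not tested.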

How the results depend on the processing

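Of the 3031 calls, 1524 higher and 1507 lower, those of named genes kept their direction under every setting in which they were tested. Over all genes, 3 changed sign with the mean of a gene's probes and 3 where detection on all 4 chow arrays was required. Without background correction 850 were called higher and 953 lower, and in the authors' normalized values 807 and 913. With a threshold of 1.5-fold the counts were 2769 and 2431, and with 4-fold 367 and 648. Requiring detection on all 4 chow arrays, which removes genes absent from one sample, left 1325 and 949. Normalizing the 4 chow arrays together gave 1557 and 1523. Dropping the detection filter, which raised the genes tested to 16593, gave 1524 and 1507. Median scaling gave 1974 and 1308, or 60.1% higher in place of 50.3%, with the median of all genes at 0.26. Scaling to ribosomal protein genes (1418 and 1662) and placing undetected genes at their bound (1486 and 1425) were added after seeing the data. Leaving out each array in turn gave 1525 to 1603 higher and 1472 to 1596 lower. limma over the arrays, which counts array error only, called 1524 and 1507, the same 3031 genes. As 0 genes past 2-fold had overlapping arrays, neither limma nor the rule on arrays removed any gene beyond the 2-fold threshold. Of 252 named genes called, 187 to 252 were still called in the settings that keep the 2-fold threshold. No paired analysis was possible because each genotype has 1 RNA sample. In 120 genes called higher and 415 called lower the dimmer sample was not detected.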

Other observations

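Skeletal muscle and mesothelial genes did not move as groups in chow eWAT. Of 11 skeletal muscle genes 2 were called higher and 3 lower, with Pvalb, a calcium buffer of fast fibres, at least 11.9-fold higher and Tnnc2 at -1.89. Of 10 mesothelial genes 3 were called higher, among them Lrrn4 at 1.38 and Msln at 1.29, and the keratin genes Krt18 and Krt8 were lower at -1.29 and -1.09. In insulin signalling 1 of 11 genes was called higher, the receptor inhibitor Grb14 at 2.11, and 2 were lower, Gsk3b at -1.18 and Irs2 at -1.10, counts near the 14.3% and 14.1% of all genes. Of 17 genes of the unfolded protein and heat shock responses only Pdia6 was called, at 1.45.

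Among 911 kept probes without a gene symbol, 122 were called higher and 124 lower.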
